A study of Mus musculus with 4 samples.

Results

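The promoter regions with GR but not E2A were stretches of the mouse liver genome where peaks of the Glucocorticoid Receptor (GR) were called at a promoter and no E2A peak was called at the same place. Overlapping peaks of the 2 GR replicates were merged into 8795 GR regions, and those of the 2 E2A replicates into 4783 E2A regions. A GR region was kept when any of its GR peaks was annotated as promoter, when it shared no base with an E2A region and when it was under 1500 bp wide. This left 3063 regions. The regions were selected on the measured peak calls, their annotation and their widths, so those measures are given here as descriptions without a test.

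The study asked where GR and the E2A gene products meet on liver chromatin. The peaks came from GR and E2A ChIP-Seq in livers of untreated wild-type (E47+/+) male C57BL/6J mice on chow, collected at ZT 10, with 2 biological replicates for each antibody and no treated or mutant group among the 4 samples. By the paper both antibodies were used on the same livers, so the GR and E2A lists share animals. The descriptions of both E2A samples name a GR ChIP, and that of the second names E47-/- mice, whereas titles, antibody and genotype name E2A in wild type. The labels call the mice untreated, whereas the paper's supplement describes the livers as Dex-treated.

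GR is a nuclear receptor that moves to the nucleus when it binds glucocorticoids. It binds DNA as a dimer at glucocorticoid response elements (GREs), which are palindromes of 2 half-sites 3 bases apart, and it can also be tethered to chromatin through other factors. E2A encodes the bHLH proteins E12 and E47, which bind E-boxes of the form CANNTG. Many promoters of genes that every cell uses lie in CpG islands, which are rich in GC and carry GC boxes for SP and KLF factors, whereas promoters of liver-restricted genes are often poor in CpG.

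Sequences with a GRE are shown first, because the GRE is the DNA element that GR itself recognises. They are the 6 regions called in both replicates whose central 200 bp held a GRE without a mismatch closest to the middle. Mismatches were counted against a pattern that allows alternative bases at some positions. A GRE without a mismatch can thus differ from a palindrome of the half-site AGAACA, as that of Slain2 does. Coordinates and bases are those of mm10, each sequence is written 5′ to 3′ on the strand of the match, and capitals mark the GRE.
Acnat2, chr4:49408219-49408273: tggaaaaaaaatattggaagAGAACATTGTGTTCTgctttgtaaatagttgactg
Zc3h3, chr15:75828317-75828371: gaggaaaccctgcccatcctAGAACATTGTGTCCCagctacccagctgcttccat
Slain2, chr5:72948449-72948503: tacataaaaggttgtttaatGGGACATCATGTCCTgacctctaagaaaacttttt
Mt2, chr8:94171515-94171569: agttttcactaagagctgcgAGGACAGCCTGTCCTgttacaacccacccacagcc
Ifi35, chr11:101448649-101448703: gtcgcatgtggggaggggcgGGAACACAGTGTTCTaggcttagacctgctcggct
Mir698, chr4:124743127-124743181: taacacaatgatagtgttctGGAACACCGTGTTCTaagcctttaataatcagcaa
The GRE of Acnat2, an acyltransferase gene, lay at -95 bp from the start site, negative values being upstream. That of Ifi35, an interferon-induced gene, lay 269 bp downstream of the nearest start site in an intron. The Mt2 element, at a metallothionein gene, lay at -1122 bp, outside genes. The GREs at Zc3h3, Slain2 and Mir698 were in introns, more than 1000 bp from the nearest protein-coding start site of GENCODE, although the deposited annotation places these regions at promoters. None of the 6 regions was CpG-rich by the definition given further on.

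Beside Mt2, a GRE without a mismatch is shown for the regions of 3 other glucocorticoid-induced genes, searched over the whole region and not only its central 200 bp. These 3 genes were chosen after their values were seen.
Per1, chr11:69099396-69099450: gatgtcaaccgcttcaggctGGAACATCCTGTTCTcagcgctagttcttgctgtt
Mt1, chr8:94178974-94179028: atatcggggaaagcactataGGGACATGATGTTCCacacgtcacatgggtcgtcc
Fkbp5, chr17:28518159-28518213: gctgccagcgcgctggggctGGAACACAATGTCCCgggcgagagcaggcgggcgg
The element of Per1, a clock gene, was in an intron 475 bp downstream of the nearest start site. That of Mt1, a metallothionein gene, was at -81 bp. That of Fkbp5, a co-chaperone of GR, was at -662 bp.

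Of the 3063 regions, 625 (20.4%, 95% exact interval 19.0 to 21.9%) were called in both GR replicates. Replicate 2 alone gave 2279 (74.4%) and replicate 1 alone 159 (5.19%). The GR libraries stood apart: replicate 1 had 4291 peaks with 34.3% at promoters, and replicate 2 had 7334 peaks with 57.4% at promoters. The E2A lists were shorter, with 4028 peaks in replicate 1 and 1892 in replicate 2. Without GR replicate 2 the regions numbered 827. Without E2A replicate 2, whose description goes against its title, they numbered 3171, of which 21.2% were called in both GR replicates, and the number of motifs that differed from promoter regions with GR and E2A was 2 with and without it. Peak heights, counts and significance values were not in the lists. The depth of each peak is thus unknown, and a region without E2A is one where no E2A peak was called. Among promoter regions with GR and E2A, 506 of 1221 (41.4%) were called in both GR replicates. The median width was 407 bp in the regions with GR but not E2A and 561 bp in those with both factors.

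**Figure D1:**
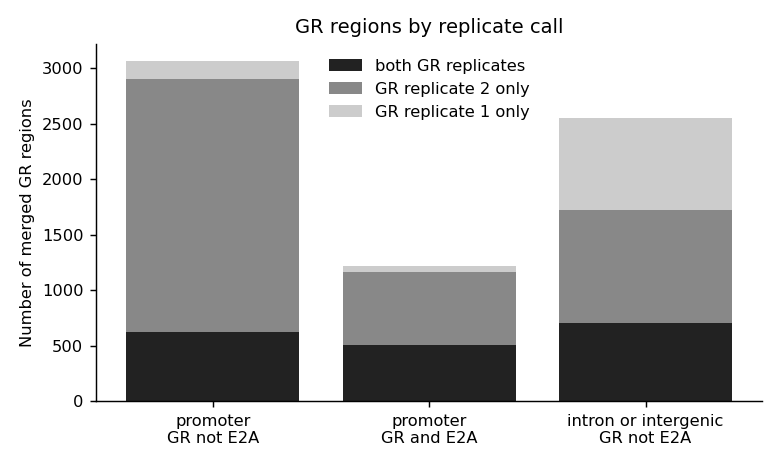
Number of merged GR regions (vertical axis) in 3 classes of region, with the bars split by the GR replicates that called them. Most of the 3063 promoter regions with GR but not E2A were called in replicate 2 alone (2279), and 625 were called in both.

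The limits of the choice can be read at their edges. The widest regions kept were at Snord104 (1497 bp), Fkbp5 (1481 bp) and Tdo2 (1432 bp). The narrowest left out were at Nat8f2 (1506 bp), Zfp1 (1533 bp) and Adh1 (1568 bp), and 33 regions were left out by width. The regions closest to an E2A region without a shared base were at Cdv3 and Lrrfip2, each 5 bp away, and at Cep350, 18 bp away. The regions with the smallest shared stretch, which were left out, were at Rab1a (7 bp), Nsd1 (9 bp) and Rab5b (12 bp). Only 61 regions (1.99%) had an E2A region within 500 bp and 468 (15.3%) within 10000 bp. The median distance to the nearest E2A region was 74537 bp.

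The regions sat on transcription start sites, in part by selection, since promoter peaks lay from -1000 to 500 bp of one. Relative to the nearest protein-coding start site, the median region centre was 32 bp downstream, with quartiles at -37 and 104 bp, and 85.9% of the centres were within 250 bp. In promoter regions with GR and E2A the median was 4 bp and the quartiles were -97 and 91 bp. A start site lay inside 81.6% of the regions (80.1 to 82.9%) and inside 82.1% of the regions with both factors, which were wider. Both sets were chosen by annotation and width, so these shares are given as descriptions. The share was 88.8% in regions called in both replicates, of median width 550 bp, and 79.7% in those of a single replicate, of median width 372 bp. Region centres fell in a UTR exon in 1321 regions (43.1%), outside genes in 808 (26.4%), in an intron in 528 (17.2%) and in a coding exon in 406 (13.3%). Start sites of protein-coding genes on opposite strands, both within 1000 bp of the centre, were found at 330 regions (10.8%). The share was 9.75% with both factors (odds ratio 1.12, 0.897 to 1.39, Fisher's exact test, p = 0.348) and 11.0% over all protein-coding starts. It was 7.04% in the 625 regions of both GR replicates and 11.7% in those of a single replicate. The odds ratio between these was 0.57 (0.41 to 0.793, Fisher's exact test, p = 0.000507). In promoter regions with GR and E2A the corresponding shares were 6.92% and 11.7%.

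**Figure D2:**
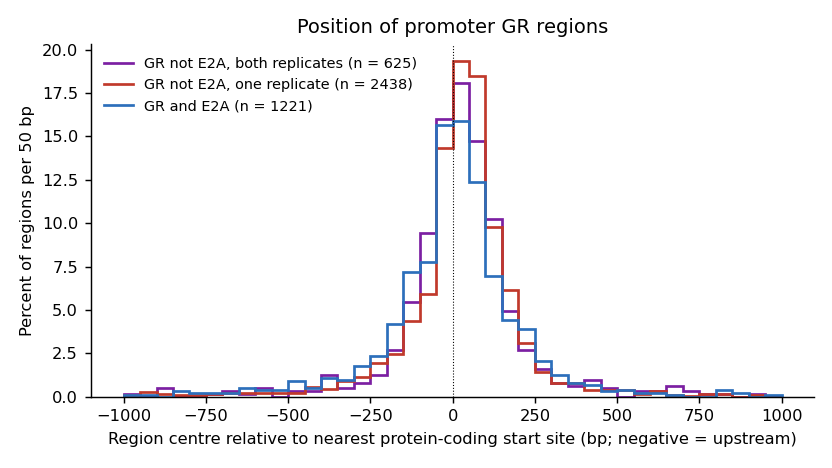
Percent of promoter GR regions per 50 bp (vertical axis) against the distance of the region centre from the nearest protein-coding start site in bp (horizontal axis, negative upstream). The 625 regions of both replicates, the 2438 of a single replicate and the 1221 with GR and E2A all peak at the start site.

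Most regions were CpG-rich. A window of 200 bp at the region centre was called CpG-rich when its GC content was at least 55% and its observed over expected CpG ratio at least 0.65. By this definition 2371 windows (77.4%, 75.9 to 78.9%) were CpG-rich, with a median GC content of 68.0%. The share among all protein-coding starts was 42.8%. Promoter regions with GR and E2A had the same share, 77.4% of 1221 (odds ratio 1.00, 0.854 to 1.17, p = 1, Fisher's exact test). Without the width limit the odds ratio was 1.23 (Fisher's exact test, p = 0.00758). In intronic and intergenic regions with GR but not E2A the share was 2.94% of 2550. Regions of replicate 1 alone were CpG-rich in 55.3%, those of replicate 2 alone in 79.6%. Regions are not biological replicates, so these p-values compare lists of regions and not mice.

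**Figure D3:**
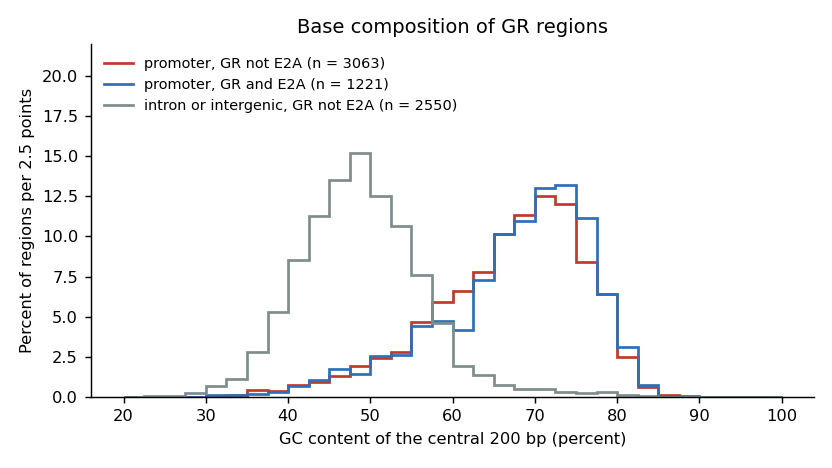
Percent of regions per 2.5 points (vertical axis) against the GC content of the central 200 bp (horizontal axis) in 3 classes of GR region. Both promoter classes lie at high GC, with medians of 68.0 and 69.0%, and the intronic and intergenic class at a median of 48.5%.

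GREs were rare in these regions. With up to 2 mismatches from the same pattern allowed on either strand, 245 of the 3063 windows (8.0%, 7.06 to 9.02%) held a GRE. Of these, 10 had no mismatch, 33 had 1 and 202 had 2. The share was 9.03% in windows of the same length over all protein-coding starts. It was 6.47% in promoter regions with GR and E2A (odds ratio 1.26, 0.966 to 1.63, Fisher's exact test with Benjamini-Hochberg adjustment over 20 motifs, adjusted p = 0.304). In intronic and intergenic regions with GR but not E2A, 33.3% of the windows held a GRE (odds ratio 0.174, 0.150 to 0.204), and within bins of 5% GC content the odds ratio was 0.380. The half-site AGAACA followed the same order, with 6.86% in the regions, 10.8% over all protein-coding starts and 30.6% in the intronic and intergenic regions. Its odds ratio against the intronic and intergenic regions was 0.167 (0.142 to 0.196), and 0.516 within bins of GC content. Among the regions, GREs lay in 15.5% of the windows that were not CpG-rich and in 5.82% of those that were.

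Regions called in both replicates held a GRE more often, in 11.7% of 625 windows against 7.05% of 2438 (odds ratio 1.74, 1.30 to 2.33, Fisher's exact test, adjusted p = 0.0052). The E-box CAGCTG, of the class that E proteins bind, was also more frequent there, with 14.6% against 9.80% (odds ratio 1.57, 1.21 to 2.03, Fisher's exact test, adjusted p = 0.00866). Both differences remained past the threshold within bins of GC content. Neither passed it in the central 100 bp (adjusted p = 0.0793 and 0.161, Fisher's exact test). The other 18 motifs did not pass this test. Matches of CAGCTG are shown in capitals for the pair of such regions with the match closest to the centre.
Ak3, chr19:29047904-29047933: ctggagggctggCAGCTGcaagcgggcggt
H6pd, chr4:150003235-150003280: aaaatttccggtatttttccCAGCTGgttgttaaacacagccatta
Ak3 encodes a mitochondrial adenylate kinase, and the match lay in a UTR exon 43 bp downstream of the start site. H6pd encodes a dehydrogenase of the endoplasmic reticulum that supplies NADPH for glucocorticoid activation, and its match lay at -127 bp from the nearest start site.

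Few motifs separated promoters without a called E2A peak from those with one. Of 20 motifs, 2 differed in share from promoter regions with GR and E2A, and both were less frequent without E2A. TGACGTCA, the element of CREB and ATF factors, was found in 40 of 3063 windows (1.31%) against 45 of 1221 (3.69%), an odds ratio of 0.346 (0.225 to 0.532, Fisher's exact test, adjusted p = 4.4e-05). The share over all protein-coding starts was 2.01%. The odds ratio was 0.422 without GR replicate 2 and 0.290 in regions of both GR replicates, where it no longer passed the threshold (adjusted p = 0.239 and 0.0793, Fisher's exact test). The GC box GGGCGG was found in 57.1% against 62.2% (odds ratio 0.809, 0.706 to 0.927, adjusted p = 0.0224 in Fisher's exact test), and within bins of GC content the odds ratio was 0.847 and did not pass the threshold (Mantel-Haenszel test, adjusted p = 0.218). CANNTG, the general E-box, was found in 41.9% against 38.7% (odds ratio 1.14, 0.995 to 1.31, Fisher's exact test, adjusted p = 0.253). For CAGCTG and CAGGTG, the E-boxes of the E protein class, the odds ratios were 1.21 (0.963 to 1.51) and 1.13 (0.917 to 1.40). Neither passed the threshold (adjusted p = 0.304 and 0.441, Fisher's exact test). The matches of TGACGTCA closest to the centre of a region of both replicates are shown in capitals.
Atl2, chr17:79896045-79896074: taactccccacTGACGTCAaacgccgccgc
Plk2, chr13:110394962-110395009: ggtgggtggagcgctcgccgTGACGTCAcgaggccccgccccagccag

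The regions carried the motifs of CpG-island promoters. Against intronic and intergenic regions with GR but not E2A, 19 of 20 motifs differed in share, 6 of them more frequent at the promoters and 13 less frequent. The more frequent ones were GGGCGG (57.1% against 6.31%), the ETS element CCGGAAG (12.3% against 1.33%), the YY1 element AAGATGGCG (3.20% against 0.0392%), the NRF1 element CGCATGCG (2.29% against 0.0392%), CTCGCGAG (1.67% against 0.0392%) and TGACGTCA (1.31% against 0.235%). Over all protein-coding starts these shares were 40.0%, 9.56%, 1.81%, 1.87%, 0.944% and 2.01%. TGACGTCA was thus less frequent in the regions than at promoters in general, and CGCATGCG was near its share there. Within bins of GC content all 6 were still more frequent than in the intronic and intergenic regions, with smaller odds ratios for 5 of them. These fell from 19.7 to 2.63 for GGGCGG, from 10.4 to 4.04 for CCGGAAG, from 84.3 to 9.64 for AAGATGGCG, from 43.2 to 16.2 for CTCGCGAG and from 5.61 to 3.59 for TGACGTCA. For CGCATGCG they were 59.6 and 61.1. The other set held 1 match each of AAGATGGCG, CTCGCGAG and CGCATGCG, so these odds ratios are imprecise. The motifs of liver factors were less frequent at the promoters. HNF6 (ATTGATT) was found in 0.457% against 5.80%, C/EBP (TTGCNNAA) in 4.02% against 16.5%, STAT5 (TTCNNNGAA) in 3.10% against 13.3%, FOXA (TGTTTAC) in 1.57% against 5.49% and HNF4 (CAAAGTCCA) in 0.359% against 2.00%. In this order the shares over all protein-coding starts were 1.41%, 5.68%, 4.94%, 1.56% and 0.292%. For FOXA and HNF4 the regions were thus near the share of promoters in general. Within bins of GC content the odds ratios moved toward 1, from 0.0745 to 0.485 for HNF6 and from 0.209 to 0.722 for STAT5. These 2 still passed the threshold, whereas C/EBP, FOXA and HNF4 did not (Mantel-Haenszel test, in place of the exact test, adjusted p = 0.0864, 0.190 and 0.190). CCAAT and TATAAA were less frequent at the promoters (18.7% against 25.7% and 3.17% against 8.16%) and turned to more frequent within GC bins, with odds ratios of 1.25 and 1.45. Matches overlap where motifs share letters, as CAGCTG and CAGGTG do with CANNTG.

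**Figure D4:**
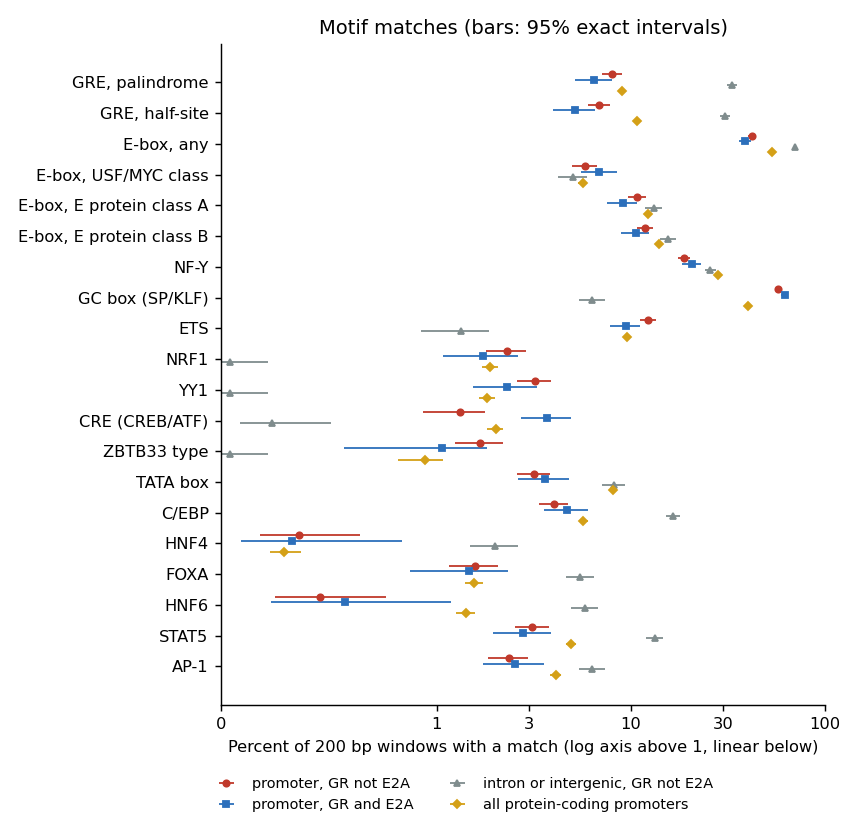
Percent of 200 bp windows with a match (horizontal axis, logarithmic above 1 and linear below) for 20 motifs named by their factors, in 3 classes of GR region and over all protein-coding starts, with 95% exact intervals. The GRE palindrome was found in 8.0% of the promoter regions with GR but not E2A, 6.47% of those with GR and E2A and 33.3% of the intronic and intergenic regions.

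Examples from CpG-rich regions of both replicates show these elements in capitals. They are the matches closest to a region centre for the GC box, the ETS and the YY1 element.
Nabp1, GC box, chr1:51478470-51478515: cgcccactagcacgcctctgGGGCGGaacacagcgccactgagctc
Tm9sf3, ETS, chr19:41264047-41264093: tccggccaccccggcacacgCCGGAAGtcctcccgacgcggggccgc
Eci1, YY1, chr17:24426690-24426718: actgatatccAAGATGGCGctggctgctg
Lipc and Mup21 show the HNF6 motif in regions that were not CpG-rich. Lipc encodes hepatic lipase and Mup21 a major urinary protein.
Lipc, chr9:70934816-70934862: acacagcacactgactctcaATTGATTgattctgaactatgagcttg
Mup21, chr4:62150972-62151018: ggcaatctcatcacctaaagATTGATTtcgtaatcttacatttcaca

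The regions belonged to 2879 of 21938 protein-coding genes, a background of 13.1%, and those called in both replicates to 604 genes, a background of 2.75%. Promoter regions with GR and E2A belonged to 5.13% of the genes. Of the 2879 genes, 75 had more than 1 region, 68 (2.36%) also had a promoter region with GR and E2A, and 585 (20.3%) were the nearest gene of an E2A peak somewhere. Of the regions, 2951 were assigned to protein-coding genes, and the remainder included 18 at microRNA genes. The gene lists that follow were chosen with results of these data known, so their shares are set beside the background without a test.

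Genes that respond to glucocorticoids and genes of liver regulators had regions in both replicates. Of 23 glucocorticoid-induced genes, 11 (47.8%) had a region, 9 of them (39.1%) in both replicates. These were Angptl4, Cebpd, Fkbp5, Lpin1, Mt1, Mt2, Per1, Sgk1 and Tsc22d3. At Per1 the peaks were 1075 bp wide in replicate 1 and 478 and 279 bp in replicate 2. At Mt2 they were 481 and 319 bp wide, and at Tsc22d3, which encodes the leucine zipper protein GILZ, 830 and 605 bp. Of the 12 regions of this list, 7 held a GRE somewhere in their length, against 18.5% of all 3063 regions and 30.1% of the 625 called in both replicates. The regions differ in width, and longer ones hold more bases to match. Per1 also had a promoter region with GR and E2A. Of 18 hepatocyte transcription factors, 9 had a region, 7 (38.9%) of them in both replicates, among them Cebpb, Cebpd, Foxa3, Hnf4a, Nr1i2 and Onecut2. Only 3 of these 9 regions were CpG-rich. Of 49 nuclear receptors 11 (22.4%) had a region, with Hnf4a, Nr1i2, Rara and GR's own gene Nr3c1 in both replicates. The exact interval of this share (11.8 to 36.6%) covered the background of 13.1%. Of 22 clock genes 8 (36.4%) had a region, with Bhlhe41, Cry2, Nfil3 and Per1 in both replicates. A promoter region with GR and E2A was found at 17.4% of the glucocorticoid-induced genes and 11.1% of the hepatocyte transcription factors. It was found at 18.4% of the nuclear receptors and 18.2% of the clock genes, against 5.13% of all protein-coding genes. Of 7 genes for E proteins and Id proteins 1 (14.3%) had a region, Id1, in replicate 2 alone. This share was near the background of 13.1%, and its exact interval was wide (0.361 to 57.9%).

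Several lists of liver metabolic genes had larger shares than the background, as had most of the other lists. The shares with a promoter region with GR and E2A were mostly above their background of 5.13% as well. They were 14.8% for fatty acid oxidation, 21.6% for glycolysis, gluconeogenesis and the TCA cycle, and 26.2% for amino acid catabolism and the urea cycle. They were 20.4% for cholesterol and fatty acid synthesis, 11.9% for plasma proteins and 4% for cytochrome P450 enzymes. Larger shares were thus not particular to regions without E2A. The background of 13.1% covers all 21938 protein-coding genes, among them 1093 olfactory receptor genes without a region. Fatty acid oxidation had regions at 13 of 27 genes (48.1%), 7 in both replicates, among them Cpt1a and Cpt2, which carry fatty acids into mitochondria. Glycolysis, gluconeogenesis and the TCA cycle had 15 of 37 (40.5%), with 7 in both, including Pcx for pyruvate carboxylase and Pfkl for phosphofructokinase. Amino acid catabolism and the urea cycle had 17 of 42 (40.5%), with 6 in both, including Asl of the urea cycle and Tdo2, which degrades tryptophan. Cholesterol and fatty acid synthesis had 19 of 49 (38.8%), with 7 in both, including Fasn for fatty acid synthase and Dgat2, which makes triglycerides. Plasma proteins had 25 of 84 (29.8%), with 9 in both, including Hp for haptoglobin and F2 for prothrombin, and none of their 25 regions was CpG-rich. Cytochrome P450 enzymes were near the background, with 16 of 100 (16.0%, 95% exact interval 9.43 to 24.7%) and 6 in both, including Cyp27a1 and Cyp2f2, and 3 of their 17 regions were CpG-rich. Plasma protein and P450 genes are defining genes of liver, the labelled tissue.

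Genes of basic cell functions had regions as well, and the lists differed in how many were called in both replicates. The backgrounds were 13.1% in either replicate and 2.75% in both. Cytosolic ribosomal proteins had regions at 45 of 81 genes (55.6%), and at 8 (9.88%) in both replicates, among them Rpl14, Rpl27, Rpl28, Rpl38, Rplp1, Rplp2 and Rpsa. Without GR replicate 2 the share was 11.1%, against a share of 3.54% over all protein-coding genes. Of their 46 regions 38 (82.6%) were CpG-rich. At Rpsa, a laminin receptor and ribosomal protein gene, the peaks were 400 bp wide in replicate 1 and 598 bp in replicate 2. Splicing factors had 17 of 60 (28.3%), with 7 (11.7%) in both, among them Srsf1, Srsf7 and Sf3b1, and all 17 regions were CpG-rich. Translation factors had 20 of 68 (29.4%), with 4 (5.88%) in both. Chaperones had 23 of 90 (25.6%), with 8 (8.89%) in both, among them Fkbp4, Fkbp5 and Hspa1b, partners of GR or heat-shock proteins. The respiratory chain had 20 of 80 (25%), with 4 (5%) in both. The proteasome had 11 of 39 (28.2%), with Psma6 and Psmd7 in both. MAP kinase cascade kinases had 13 of 46 (28.3%), with Map2k2, Map2k3, Map2k4 and Mapk14 in both. Among the lists of this paragraph, the share with a promoter region with GR and E2A ran from 3.75% to 14.8%. The lowest was that of the respiratory chain and the highest that of cytosolic ribosomal proteins, against 5.13% of all protein-coding genes.

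For most of the other lists the share with a region in both replicates was near the background of 2.75%. The exact intervals of their shares in either replicate covered 13.1%, except for autophagy genes and olfactory receptor genes. Mitochondrial ribosomal proteins had 16 of 78 (20.5%), with Mrpl12 in both. Aminoacyl-tRNA synthetases had 9 of 37 (24.3%), with Vars2 in both. Mediator subunits had 8 of 33 (24.2%), with Med1 in both. RNA polymerase II and general factors had 12 of 53 (22.6%), with Taf4 in both. Autophagy genes had 8 of 27 (29.6%), with Ulk2 in both. Rab, Vps and Sec trafficking genes had 19 of 120 (15.8%), with 3 in both. C2H2 zinc finger genes had 68 of 462 (14.7%), with 13 in both (2.81%). Ubiquitin conjugating enzymes had 3 of 37 (8.11%), none in both. Of the 37 genes, 9 (24.3%) had a promoter region with GR and E2A, against 5.13% of all protein-coding genes. None of 1093 olfactory receptor genes had a region (95% exact interval 0 to 0.337%), which was below the background of 13.1%.

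**Figure D5:**
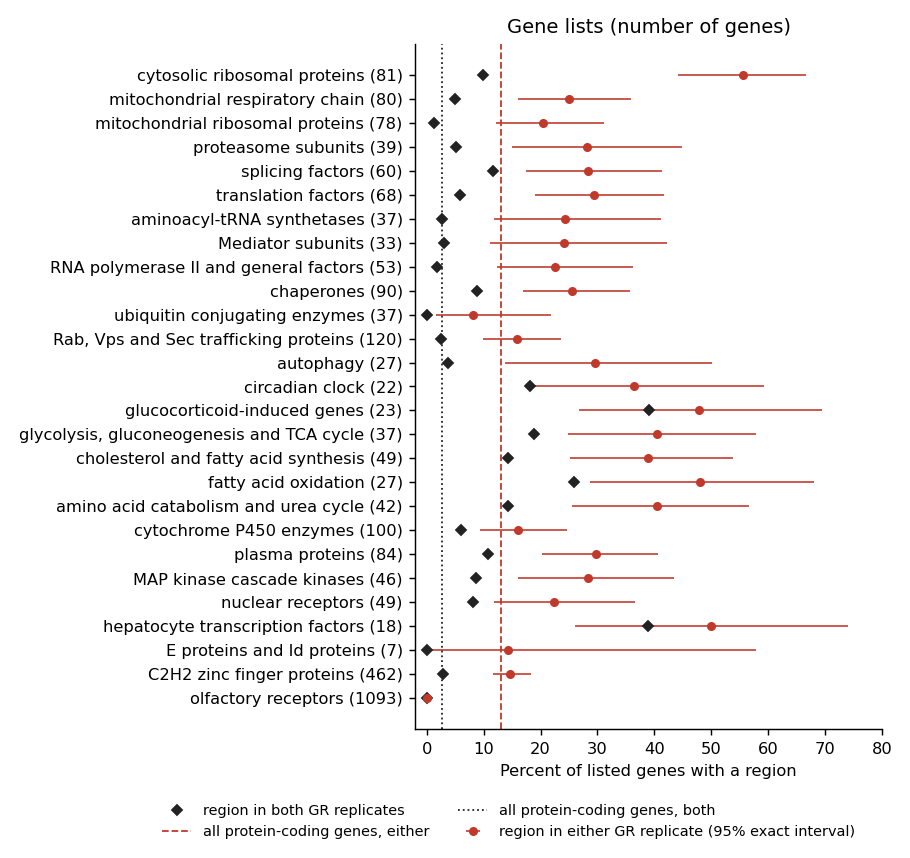
Percent of the genes of each list (list size in brackets) with a promoter region with GR but not E2A, in either GR replicate with 95% exact intervals and in both replicates, beside the shares of all protein-coding genes (13.1 and 2.75%, vertical lines). Cytosolic ribosomal proteins reached 55.6% in either replicate and 9.88% in both, and glucocorticoid-induced genes 47.8 and 39.1%.

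Of 19 genes that the study names for its ChIP-Seq, 5 had a promoter region with GR but not E2A, 4 of them in both GR replicates. A promoter region with both factors was found at 7, and Per1 was counted in both groups. Over all protein-coding genes the shares were 13.1% with GR but not E2A, 2.75% in both GR replicates, and 5.13% with both factors. Among the genes with GR but not E2A were Per1 and Foxo1 in both GR replicates and Igfbp1 in replicate 2 alone. The paper lists Igfbp1 among genes where both factors bound a promoter or an enhancer, whereas enhancers were not counted here. Foxo1 encodes a forkhead factor of the fasting response. Its peaks were 502 bp wide in replicate 1 and 885 bp in replicate 2, and the nearest E2A region was 21612 bp away. Among the genes with both factors were Per1, Hmgcs1, Irs1, Irs2, Elovl6 and Srebf2.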

How the data were processed

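GR and E2A ChIP-Seq was carried out in liver, with 2 replicates each. The submitters' processing notes name BWA 0.7.13, Picard 1.119 and MACS2 2.1.0, and the study's methods give other versions of Picard and MACS2. By those methods the authors aligned reads to mm10, filtered them to unique pairs and downsampled to a fixed number of pairs per antibody. The deposited lists give the position and width in bp, annotation and nearest gene of each peak, with no other unit. Deposited promoter peaks lay from -1000 to 500 bp of a start site. GR replicate numbers were taken from the labels, and those in the names of the lists are opposite. The control and peak threshold are not given in the sources used here.

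Merged regions shared at least 1 bp. Motifs were counted on both strands in the central 200 bp of GRCm38, with start sites of GENCODE M21. Region sets were compared by Fisher's exact test (two-sided) with Benjamini-Hochberg adjustment over 20 motifs, and by Mantel-Haenszel odds ratios in bins of 5% GC content. Odds ratio intervals are 95% Wald intervals and share intervals are 95% exact intervals, and both cover counting error only. Gene lists (27) were matched by symbol. Genes named are those of each list with a region in both replicates, the motif matches with fewest mismatches closest to a region centre, the regions at the limits, and the genes the study names. The regions of some genes that this rule names are not reported here. The members and lists were chosen with earlier results of these data known. Tests ran in statsmodels 0.14.6 and scipy 1.17.1 under Python 3.11.15, and sequences were read with pysam 0.24.0. The code was tested on simulated data. Alternatives changed the width limit, overlap, promoter definition, replicates and motif windows.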

Additional observations from a re-analysis of the deposited data

How the results depend on the processing

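Of the alternatives, leaving out GR replicate 2 mattered most. Leaving out 1 replicate at a time gave 827 to 3852 regions, 21.2 to 23.8% called in both GR replicates, 0 to 3 motifs that differed from promoter regions with GR and E2A, 71.7 to 82.8% with a start site inside, odds ratios of 0.980 to 1.16 for divergent promoters, and a median share over the gene lists of 8.16 to 32.2% against 28.2%. Against intronic and intergenic regions, odds ratios ran from 0.964 to 1.24 for the E-box CACGTG and from 0.765 to 1.04 for the E-box CAGCTG, and both turned direction without GR replicate 2. In regions of both GR replicates 0 motifs differed from promoter regions with GR and E2A, the median list share was 6.00%, and CAGCTG turned to 1.20 against intronic and intergenic regions. The number of motifs that differed from promoter regions with GR and E2A was 1 with a width limit of 1000 bp, with E2A regions of both replicates only, in the central 100 bp and within GC bins, and 4 with start sites of the reference. With E2A regions of both replicates only, 24.5% were called in both GR replicates and the divergent odds ratio was 0.799. The odds ratio of CpG-rich windows was 1.23 without a width limit, and 0.993, 0.984, 1.00 and 0.949 with a 1000 bp limit, every peak at a promoter, reference start sites and the central 400 bp. The share with a start site inside crossed that of the regions with both factors, at 81.4, 82.1 and 81.9%, with a 1000 bp limit, with a 500 bp margin and with E2A regions of both replicates only. In the central 100 bp 0 motifs differed between regions of both and of a single GR replicate. Within GC bins the E-box CACGTG, the NF-Y motif and the TATA box turned to 0.776, 1.25 and 1.45 against intronic and intergenic regions. Odds ratios against a set without any match could not be computed. The cause was not tested. No paired analysis was possible because the tests compare sets of merged regions and have no value per replicate to block on, and the replicate numbers of GR differ between the labels and the list names, so which GR and E2A lists share a liver is not settled. Peak lists without counts limit the depth that can be judged.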
